A study of Mus musculus with 6 samples.

Results

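The genes examined were *Gdnf*, *Artn*, *Bdnf*, *Ntf3*, *Lif*, *Cntf*, *Clcf1* and *Olig1*, named here the neurotrophic factor genes. They were chosen by symbol, with earlier results of these data known, and are 8 of the 24062 genes in the count tables. Bulk RNA-seq of mouse dorsal root ganglion (DRG)/tumors compared 3 libraries from *Nf1fl/fl;DhhCre* mice with 3 libraries whose genotype label reads Rx1flfl;Rx3fl/fl;DhhCre. The methods of the study give the second genotype as *Runx1fl/fl;Runx3fl/fl;Nf1fl/fl;DhhCre*, so that both groups carry floxed *Nf1* and the Cre transgene and differ in the floxed *Runx1* and *Runx3* alleles. The label of the second group leaves *Nf1* out, and the tissue is labelled dorsal root ganglion in the first group and neurofibroma tumor in the second. All mice had the strain background C57BL/6-I129, no treatment is named, and their age is not given in the sources used here. Cre under the *Dhh* promoter deletes floxed alleles in the Schwann cell (SC) lineage. Cells of the ganglion and tumor outside that lineage keep intact copies.

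Repair SCs are the cells that myelinating and nonmyelinating SCs turn into after a nerve is cut, under the transcription factor c-Jun. They secrete factors that keep injured neurons alive and guide regrowing axons. The GDNF family ligands (GDNF, artemin) bind a GFRα co-receptor and signal through RET, the neurotrophins (BDNF, NT-3) bind Trk receptors and p75NTR, and the ligands of the interleukin-6 family (LIF, CNTF, CLCF1) signal through gp130 and LIFR. The members fit this name unequally. CNTF is known as a factor of myelinating SCs that is lost from injured nerve, and OLIG1 is not a secreted factor but a transcription factor of oligodendrocytes that repair SCs also turn on. In bulk RNA the cells that made these transcripts were not identified.

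The promoter windows are shown first because the study deleted *Runx1* and *Runx3*, whose products bind the letters TGTGGT or TGCGGT, and because c-Jun binds AP-1 sites (TGANTCA). RefSeq windows of GRCm38.p6, each from 250 bases before to 50 bases after a transcription start, were found for 6 of the 8 genes (14 windows, 7 of them for *Bdnf*). No window was used here for *Clcf1* and *Olig1*. Searched on both strands, 1 of the 14 windows held RUNX letters and 3 held AP-1 letters. Over all 32851 windows of the table the shares were 22.4% and 7.81%. The matches follow with up to 10 flanking bases on each side, on the strand of the gene, with the motif in capitals.
*Lif*, RUNX letters, chr11:4257456-4257481, plus strand, 102 bases before the start: aggctccatcTGTGGTgtgggtgctc
*Lif*, AP-1 letters, chr11:4257330-4257356, plus strand, 228 bases before the start: cagtcagctgTGACTCAggccatagtg
*Bdnf*, AP-1 letters, chr2:109676870-109676896, plus strand, 152 bases before the start of its second window: cccacaaaaaTGAATCAaggtaatttc
*Cntf*, AP-1 letters, chr19:12765861-12765882, minus strand, 245 bases before the start: gtatcTGACTCAtttaataagt

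Among the 6 genes with a window, *Lif* was thus the single one with both sets of letters. The 2 windows of *Gdnf* (chr15:7809798-7810097 and chr15:7813477-7813776) held neither, which says only that these letters are not in these windows. A match is a description of sequence and no evidence of binding.

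The authors' counts summed to between 12439296 and 16682194 per library, and 3 counts, used here as the floor of detection, corresponded to between 0.179 and 0.247 CPM, the counts scaled to a common library total after TMM normalization. *Runx1* was at 131, 141 and 172 CPM in *Nf1fl/fl;DhhCre* replicates 1 to 3. It was at 84.0, 78.9 and 185 CPM in labelled double knockout replicates 1 to 3, not reduced in replicate 3 (limma-voom log2 fold change -0.44, adjusted p = 0.37). Counts over the whole gene in bulk tissue include cells with intact *Runx1* and cannot show whether the floxed allele was deleted. The libraries of this group are therefore called labelled double knockouts. Results for the tested members and some other genes are also given without replicate 3 of this group. *Runx3* was lower in each of the 3 libraries (log2 fold change -0.79, limma-voom adjusted p = 0.104). By its description the same library came from another sequencing run, while the names of the deposited tables point to replicate 2. Replicate 2 of each genotype was rich in skeletal muscle transcripts (a sum of 23800 and 59500 CPM over 14 marker genes, against 161 to 763 CPM elsewhere). Cell-type marker lists differed between the genotypes, where a gene is called at a limma-voom adjusted p below 0.05 with more than a 2-fold change. The DRG sensory neuron list had 19 of 19 genes called higher (a sum of 1410 to 2920 CPM against 7040 to 15800 CPM) and the myelinating SC list 12 of 15, with the other 3 also higher by sign. The neuron sum of 15800 CPM was in labelled double knockout replicate 3, where *Runx1* was not reduced, and a link was not tested. The macrophage list had 9 of 12 genes called lower (1180 to 2250 CPM against 217 to 510 CPM) and the fibroblast list 4 of 10, and every tested gene of these 2 lists was lower by sign. The general SC list summed to 1060 to 1130 CPM and 1110 to 1440 CPM, with 1 of 10 genes called (*S100b*, higher). The satellite glial list summed to 823 to 1280 CPM and 940 to 1380 CPM. Of its 6 genes, 2 were called higher (*Fabp7*, *Hmgcs1*) and 1 lower (*Kcnj10*, log2 fold change -1.25, limma-voom adjusted p = 0.0138). No gene of these lists was at 0 in every library, and their part in the results below was not tested.

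The question for these genes was whether tissue labelled as floxed for *Runx1* and *Runx3* differed in their expression from *Nf1fl/fl;DhhCre* tissue. *Gdnf* fell, 5.77-fold, and was the single member to pass in limma-voom. *Lif* was 2-fold lower but its adjusted p missed the threshold there, and the differences of *Bdnf*, *Cntf* and *Clcf1* were within the spread between libraries. Of the 8 genes, 5 had enough counts to be tested, and *Ntf3*, *Olig1* and *Artn* did not. Among those 5, 1 was called lower and 0 were called higher, where 5.36% of the 15652 genes tested were called lower and 8.03% higher. The count of 0 was also 0 at an unadjusted p below 0.05 in limma-voom, and with edgeR and DESeq2. The count of 1 lower became 2 with each of those tools, which also called *Lif*. Adjusted p alone was below 0.05 in 1 of the 5, against 19.3% of all genes, and the genotypes did not overlap in 2 of the 5 (*Gdnf* and *Lif*), against 42.3% of all genes. The median log2 fold change of the 5 was -1.0, beside 0.02 for all genes tested. Fewer cells of a type and less RNA per cell cannot be told apart in such bulk samples. The labels give each library a number of its own and do not say whether animals were pooled, so that p-values measure the spread between these libraries.

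**Figure D1:**
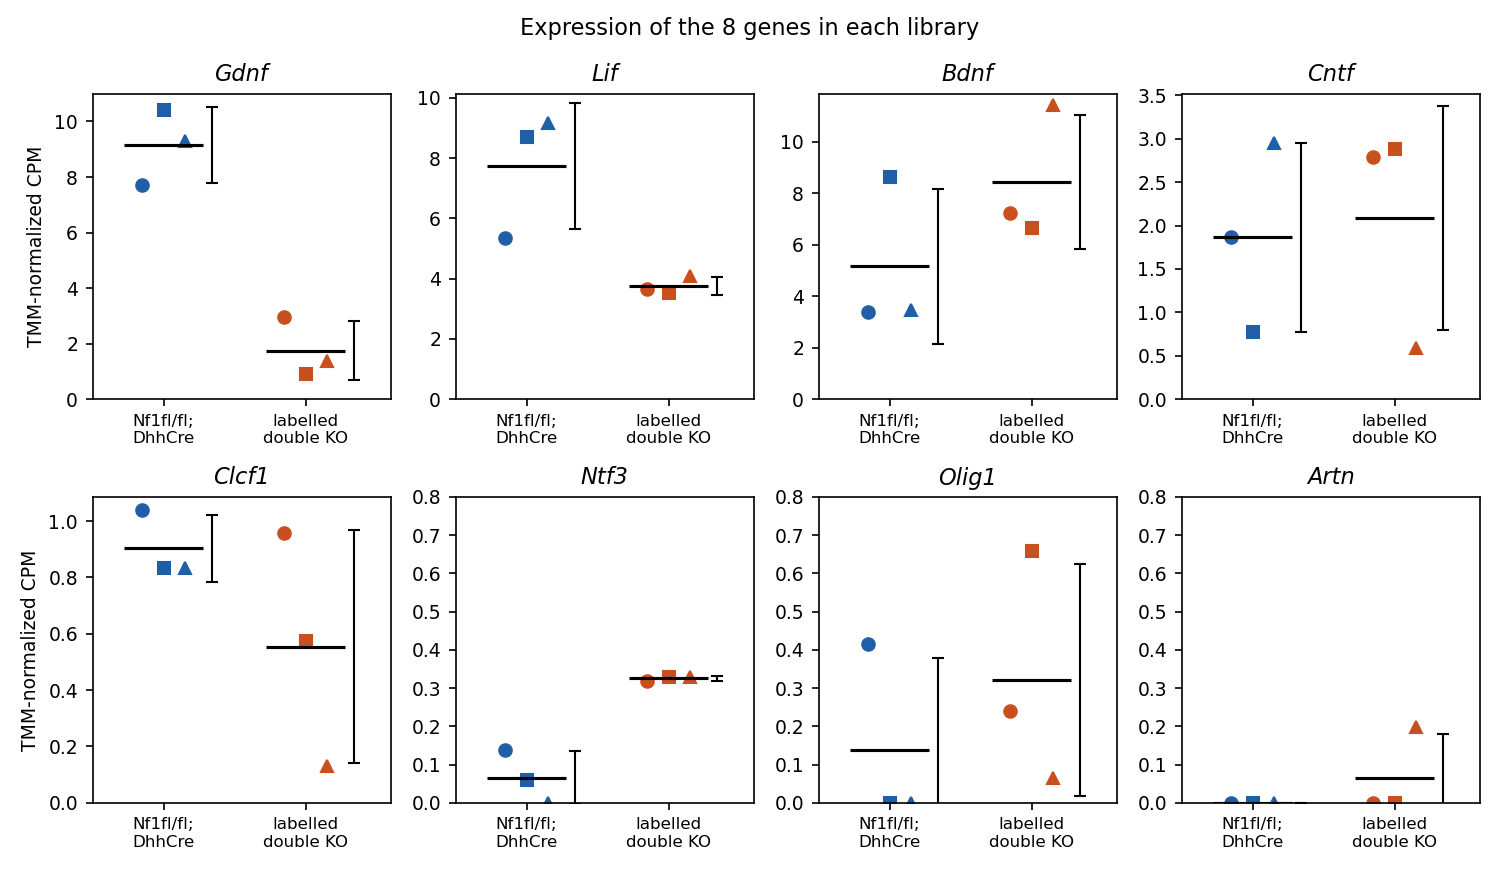
Expression of the 8 genes in TMM-normalized CPM (y axis, linear, a scale for each gene) in the 3 *Nf1fl/fl;DhhCre* libraries (blue) and the 3 labelled double knockouts (orange). Circles, squares and triangles are replicates 1, 2 and 3, the horizontal line is the mean and the bar beside it ± 1 SD. *Gdnf* and *Lif* separate the genotypes, *Bdnf*, *Cntf* and *Clcf1* overlap, and *Ntf3*, *Olig1* and *Artn* stay below 0.7 CPM.

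*Gdnf* encodes glial cell line-derived neurotrophic factor, a survival factor for sensory and motor neurons. It lies on the plus strand of chromosome 15 from 7810846 to 7837575 (GRCm38, 3 merged exons). It was counted 111, 175 and 145 times in the *Nf1fl/fl;DhhCre* libraries, or 7.70, 10.4 and 9.30 CPM. In the labelled double knockouts it was counted 37, 11 and 21 times, or 2.95, 0.905 and 1.39 CPM. The lowest *Nf1fl/fl;DhhCre* library thus stood above the highest of the other group, and replicate 1 was the highest of the labelled double knockouts. The means were 9.14 ± 1.37 CPM and 1.75 ± 1.07 CPM (SD, n = 3 each). The log2 fold change was -2.53 (SE 0.439, 95% interval -3.56 to -1.5, limma-voom adjusted p = 0.0137), that is 5.77-fold lower with an interval from 2.83-fold to 11.8-fold. Without labelled double knockout replicate 3, where *Runx1* was not reduced, it was -2.43 (limma-voom adjusted p = 0.0421), and without replicate 2 it was -2.20 (limma-voom adjusted p = 0.0448). The call was lost in 1 of the 6 leave-one-out fits, which each omit 1 library, namely the one without *Nf1fl/fl;DhhCre* replicate 1 (-2.61, limma-voom adjusted p = 0.0501).

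Summed macrophage and fibroblast transcripts ran in the same order as *Gdnf* within the labelled double knockouts. The macrophage list summed to 510, 217 and 422 CPM in these replicates and the fibroblast list to 5650, 3420 and 3820 CPM, each highest in replicate 1 and lowest in replicate 2, as *Gdnf* was. By the mean log2 CPM of its genes the fibroblast list was lowest in replicate 3 instead (6.68, 5.85 and 5.8). In the *Nf1fl/fl;DhhCre* libraries the macrophage list was lowest, at 1180 CPM, in replicate 2, where *Gdnf* was highest. The fibroblast list summed there to 9210, 9890 and 9620 CPM, the order of *Gdnf* within that genotype too. Whether these cells account for any of the *Gdnf* difference was not tested. Taken against the general SC list mean, *Gdnf* stood at -3.33, -2.69 and -2.66 on the log2 scale in the *Nf1fl/fl;DhhCre* libraries, beside -4.71, -6.02 and -5.12 in the others, a difference of -2.39 that kept the groups apart. The genes of that list did not move as 1, with *S100b* called higher, and the part of SC content was not tested.

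*Artn* encodes artemin, the GDNF family ligand of GFRα3 on pain-sensing neurons (chromosome 4, minus strand, 117926162 to 117929763). It was at 0 counts in 5 of the 6 libraries and at 3 counts, 0.198 CPM, in labelled double knockout replicate 3. The floor of 3 counts in the *Nf1fl/fl;DhhCre* libraries was 0.179 to 0.208 CPM. Both groups were at or under that floor, so no fold is given, and a difference was not detectable at this depth.

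*Bdnf* encodes brain-derived neurotrophic factor, a neurotrophin made by sensory neurons as well as by SCs, and lies on the plus strand of chromosome 2 from 109674700 to 109727007 (9 merged exons). Its level was 3.40, 8.64 and 3.46 CPM in the *Nf1fl/fl;DhhCre* libraries, from 49, 145 and 54 counts. It was 7.25, 6.66 and 11.4 CPM in the labelled double knockouts, from 91, 81 and 173 counts. The groups overlapped, because *Nf1fl/fl;DhhCre* replicate 2 stood above 2 of the labelled double knockouts. The means were 5.17 ± 3.01 CPM and 8.44 ± 2.59 CPM (SD, n = 3 each), with a log2 fold change of 0.81 (SE 0.425, 95% interval -0.19 to 1.8, limma-voom adjusted p = 0.22). Without that replicate 2 the change was 1.32 (limma-voom adjusted p = 0.0503), and without labelled double knockout replicate 3 it was 0.55 (limma-voom adjusted p = 0.471).

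Within each genotype the highest *Bdnf* library was also the one with the most DRG sensory neuron transcripts. The neuron list summed to 1510, 2920 and 1410 CPM in *Nf1fl/fl;DhhCre* replicates 1 to 3 and to 7040, 8160 and 15800 CPM in the labelled double knockouts. The *Nf1fl/fl;DhhCre* library with the high *Bdnf* level was also the muscle-rich one, and with a muscle score as covariate the log2 fold change was 0.67 (limma-voom adjusted p = 0.319). The part of either was not tested. An antisense gene, *Gm45346*, shares 896 exon bases with *Bdnf*. The strand setting of the counting is not given in the sources used here, and without strand the reads of the pair cannot be told apart.

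*Ntf3* encodes neurotrophin-3, the ligand of TrkC on proprioceptive neurons and an autocrine survival factor of SCs (chromosome 6, minus strand, 126101412 to 126166910). It was counted 2, 1 and 0 times in the *Nf1fl/fl;DhhCre* libraries and 4, 4 and 5 times in the labelled double knockouts. In CPM these were 0.139, 0.0596 and 0 against 0.319, 0.329 and 0.330, so that each labelled double knockout was above the floor of 3 counts and each *Nf1fl/fl;DhhCre* library below it. Summed over libraries, 3 counts stood against 13, a ratio of 5.09 per count sequenced (95% interval 1.4 to 27.8, counting error only). It was too low to enter the test. With no filter on low counts its limma-voom adjusted p was 0.107.

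*Lif* encodes leukemia inhibitory factor, a cytokine of injured nerve, and lies on the plus strand of chromosome 11 from 4257557 to 4272514 (5 merged exons), downstream of the RUNX and AP-1 letters shown above. Its level was 5.34, 8.70 and 9.17 CPM in the *Nf1fl/fl;DhhCre* libraries, from 77, 146 and 143 counts. In the labelled double knockouts it was 3.67, 3.54 and 4.09 CPM, from 46, 43 and 62 counts. No library of one genotype reached the other, and the 3 labelled double knockouts lay close together. The means were 7.74 ± 2.09 CPM and 3.76 ± 0.291 CPM (SD, n = 3 each). The log2 fold change was -1.0 (SE 0.324, 95% interval -1.76 to -0.24, limma-voom adjusted p = 0.0703), 2-fold lower with an interval from 1.18-fold to 3.39-fold. It was called by edgeR's quasi-likelihood test (-1.04, adjusted p = 0.0488) and by DESeq2 (-1.05, adjusted p = 0.0117), and in 0 of the 6 limma-voom leave-one-out fits (adjusted p from 0.0611 to 0.183). Without labelled double knockout replicate 3 it was -1.06 (limma-voom adjusted p = 0.138). Relative to the general SC list the difference was -0.87 on the log2 scale, again without overlap.

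*Cntf* encodes ciliary neurotrophic factor (chromosome 19, minus strand, 12763660 to 12765632, 2 merged exons). It was at 1.87, 0.774 and 2.95 CPM in the *Nf1fl/fl;DhhCre* libraries, from 27, 13 and 46 counts. In the labelled double knockouts it was at 2.79, 2.88 and 0.594 CPM, from 35, 35 and 9 counts. Each group held a high and a low library, and the lowest value of all was in labelled double knockout replicate 3. The log2 fold change was -0.001 (SE 0.784, 95% interval -1.84 to 1.83, limma-voom adjusted p = 0.999), an interval that includes changes of more than 2-fold either way. Without labelled double knockout replicate 3 it was 0.82 (limma-voom adjusted p = 0.406). That library had the highest sum of the myelinating SC list, 15800 CPM, beside 15200 and 12100 CPM in replicates 1 and 2. *Cntf* shares 847 of its 1073 exon bases with *Zfp91* on the same strand, which was at 143 to 195 CPM, so that its counts depend on how shared reads were assigned.

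*Clcf1* encodes cardiotrophin-like cytokine factor 1, which binds the CNTF receptor (chromosome 19, plus strand, 4214238 to 4223490, 3 merged exons). It was at 1.04, 0.834 and 0.834 CPM in the *Nf1fl/fl;DhhCre* libraries, from 15, 14 and 13 counts. It was at 0.956, 0.576 and 0.132 CPM in the labelled double knockouts, from 12, 7 and 2 counts. The first of these stood within the range of the other group and the last was under the floor of 3 counts. The log2 fold change was -1.06 (SE 0.757, 95% interval -2.83 to 0.71, limma-voom adjusted p = 0.363). It was -0.23 (limma-voom adjusted p = 0.848) without labelled double knockout replicate 3. A gene on the same strand, *AC109138.7*, shares 311 of its exon bases.

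*Olig1*, the transcription factor (chromosome 16, plus strand, 91269772 to 91271933, 1 exon), was counted 6, 0 and 0 times in the *Nf1fl/fl;DhhCre* libraries and 3, 8 and 1 times in the labelled double knockouts. In CPM these were 0.416, 0 and 0 against 0.239, 0.658 and 0.066. Libraries above the floor of 3 counts were found in both groups. Its ratio of 12 counts to 6, scaled to depth, was 2.35 (95% interval 0.816 to 7.63, counting error only), and it was not tested.

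Levels between the genes were compared per kilobase of merged exons (CPM per kb). In the *Nf1fl/fl;DhhCre* libraries the highest mean was that of *Gdnf* at 2.49 ± 0.37 CPM per kb, followed by *Lif* at 1.78 ± 0.48, *Cntf* at 1.74 ± 1.01 and *Bdnf* at 0.831 ± 0.484 (SD, n = 3 each). Each of these 4 overlapped its neighbor in the order. The place of *Cntf* is uncertain in both groups, since 847 of the 1073 exon bases it was divided by are shared with *Zfp91*, and its level per kilobase would be higher if reads on the shared bases were not counted to it. *Clcf1* was lower than all of them in every library, at 0.237 ± 0.0312 CPM per kb, and *Olig1*, *Ntf3* and *Artn* were lower still. In the labelled double knockouts the order was different, with *Cntf* at 1.95 ± 1.21, *Bdnf* at 1.36 ± 0.416, *Lif* at 0.866 ± 0.0661 and *Gdnf* at 0.476 ± 0.291 CPM per kb (SD, n = 3 each). With *Cntf* set aside, *Gdnf* thus had the highest mean in one group and stood behind *Bdnf* and *Lif* in the other. There *Cntf* and *Bdnf* overlapped, *Lif* lay below *Bdnf* in every library, and *Gdnf* lay below *Lif*. The other 4 genes had means at or below 0.19 CPM per kb.

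**Figure D2:**
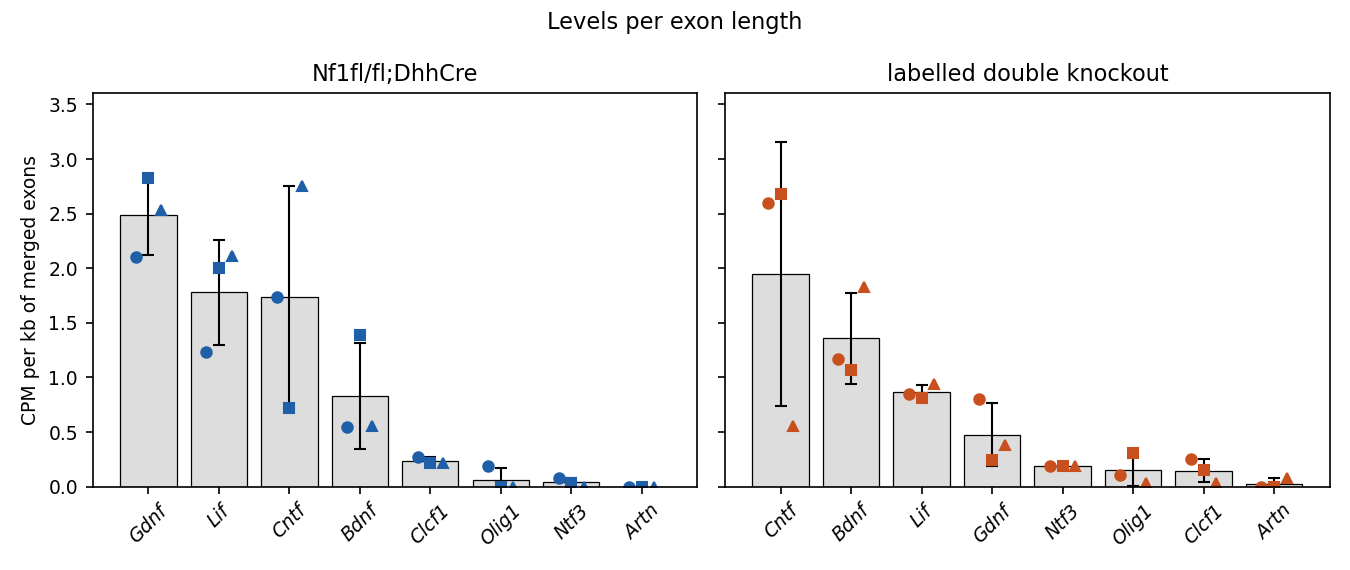
Levels of the 8 genes per kilobase of merged exons (y axis, CPM per kb) in the *Nf1fl/fl;DhhCre* libraries (left) and the labelled double knockouts (right), ordered by the mean. Bars are means, lines ± 1 SD (n = 3) and points single libraries, with circles, squares and triangles for replicates 1, 2 and 3. *Gdnf* is at 2.49 CPM per kb on the left and at 0.476 CPM per kb, behind *Bdnf* and *Lif*, on the right, and the place of *Cntf* is uncertain because it shares 847 of its 1073 exon bases with *Zfp91*.

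The other ligands of the 3 families with enough counts to be tested included *Il11* and *Ctf1*. *Il11*, an interleukin-6 family cytokine, was at 6.73, 5.66 and 6.09 CPM in the *Nf1fl/fl;DhhCre* libraries and 7.01, 6.50 and 7.72 CPM in the labelled double knockouts, which overlapped (log2 fold change 0.21, limma-voom adjusted p = 0.537). *Ctf1*, the cardiotrophin-1 gene, was at 1.66, 1.01 and 1.28 CPM against 0.956, 1.32 and 0.990 CPM (-0.24, limma-voom adjusted p = 0.748). *Crlf2*, which was placed in the same list although its product is known as a cytokine receptor, was at 1.18, 1.19 and 1.92 CPM against 0.319, 0.329 and 0.528 CPM, without overlap. Its log2 fold change of -1.74 (SE 0.597) was not called by limma-voom (adjusted p = 0.0815) and was called lower by edgeR and DESeq2. *Nrtn*, *Pspn*, *Ntf5*, *Il6*, *Osm*, *Ctf2*, *Il27* and *Ebi3* were too low to be tested, and *Ntf5* was at 0 in every library.

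Of 15 receptor genes, all tested, 9 were higher by sign and 4 were called higher in the labelled double knockouts (*Ret*, *Ntrk3*, *Ngfr* and *Lifr*) and 0 lower, beside 8.03% and 5.36% of all genes tested. The median log2 fold change was 0.69, beside 0.02. DESeq2 called 5 higher, adding *Cntfr*. The count of lower genes was 2 at an unadjusted p below 0.05 (*Osmr* and *Il6ra*), 0 by edgeR and 1 by DESeq2 (*Il6ra*). *Osmr* was lower without overlap and missed the call by its size alone, which was under 2-fold (log2 fold change -0.91, limma-voom adjusted p = 0.0393). Without *Nf1fl/fl;DhhCre* replicate 1 the number called higher was 0. It was 2 without *Nf1fl/fl;DhhCre* replicate 3 and 2 without labelled double knockout replicate 2 or 3.

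*Ret*, the signaling receptor of GDNF and artemin, was at 23.4, 65.1 and 25.1 CPM in the *Nf1fl/fl;DhhCre* libraries, and the labelled double knockouts had 148, 160 and 313 CPM. The highest library of each group was the one with the highest DRG sensory neuron sum. Its log2 fold change was 2.52 (SE 0.447, limma-voom adjusted p = 0.0143), 5.76-fold higher, and 2.18 (limma-voom adjusted p = 0.0264) without labelled double knockout replicate 3. The co-receptor of GDNF, *Gfra1*, was at 116, 105 and 84.9 CPM against 162, 160 and 169 CPM, a change of 0.69 (limma-voom adjusted p = 0.0202) that was under 2-fold and without overlap. *Gfra3*, the co-receptor of artemin, was at 6.10, 18.5 and 5.97 CPM against 5.34, 4.93 and 11.8 CPM (log2 fold change -0.35, limma-voom adjusted p = 0.691).

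Among the neurotrophin receptors, *Ntrk3* (TrkC, for NT-3) was at 57.3, 69.9 and 34 CPM against 126, 151 and 159 CPM, which gave a log2 fold change of 1.49 (SE 0.255, limma-voom adjusted p = 0.0134). *Ngfr* (p75NTR) was at 115, 194 and 102 CPM against 256, 293 and 511 CPM. It changed by 1.36 (SE 0.327, limma-voom adjusted p = 0.0301), and its call was kept in 2 of the 6 leave-one-out fits. Without labelled double knockout replicate 3 the change of *Ngfr* was 1.06 and not called (limma-voom adjusted p = 0.056). *Ntrk2* (TrkB, for BDNF) was at 632, 461 and 546 CPM against 500, 432 and 332 CPM, and was not called (-0.38, limma-voom adjusted p = 0.187).

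For the LIF and CNTF family, *Lifr* was at 258, 354 and 242 CPM against 475, 504 and 763 CPM. Its log2 fold change was 1.02 (SE 0.225, limma-voom adjusted p = 0.024), at the 2-fold limit, and 0.80 (limma-voom adjusted p = 0.0398) without labelled double knockout replicate 3. The call was kept in 2 of the 6 leave-one-out fits and in 6 of the 8 other settings, lost with library size only (0.94) and with the muscle score as covariate (0.99). *Il6st* (gp130) was at 848, 833 and 958 CPM against 774, 625 and 864 CPM (-0.23, limma-voom adjusted p = 0.298). *Cntfr*, the co-receptor of CNTF and CLCF1, was at 2.57, 8.46 and 2.12 CPM against 8.29, 12.8 and 16.4 CPM, where the 2 groups overlapped between 8.29 and 8.46 CPM (1.72, SE 0.529, limma-voom adjusted p = 0.06). *Ret* and *Ntrk3* are known as receptors of DRG sensory neurons, and the part of the neuron transcripts in these differences was not tested.

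**Figure D3:**
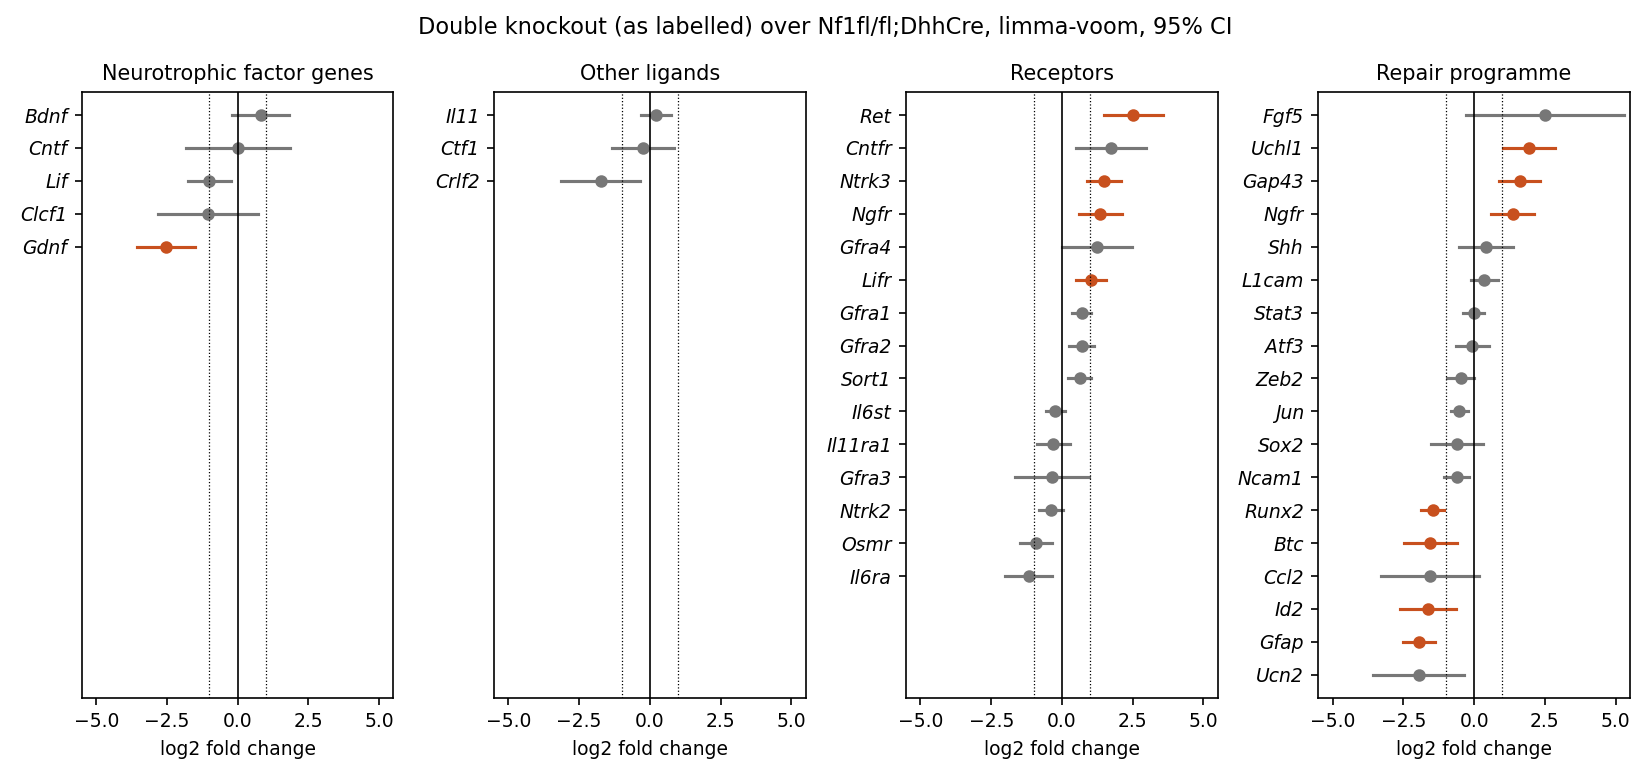
Log2 fold changes (x axis) of the tested neurotrophic factor genes, the other ligands, the receptors and the repair programme, labelled double knockouts over *Nf1fl/fl;DhhCre*, from limma-voom. Points are estimates, lines 95% intervals, orange marks a gene called at an adjusted p below 0.05 and over 2-fold, and dotted lines mark 2-fold. *Gdnf* (-2.53) and *Gfap* (-1.94) lie to the left, and *Ret* (2.52) and *Ntrk3* (1.49) to the right.

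The repair SC programme was followed in a list of 20 genes, of which 18 were tested. 4 were called lower (*Gfap*, *Runx2*, *Id2*, *Btc*) and 3 higher (*Ngfr*, *Gap43*, *Uchl1*), beside 5.36% and 8.03% of all genes tested, with a median log2 fold change of -0.50. *Ngfr* is the gene already counted among the receptors. The number called lower was 5 by edgeR, which added *Ucn2*, and 6 by DESeq2, which added *Ucn2* and *Ccl2*. *Gfap*, an intermediate filament gene of nonmyelinating and repair SCs, was at 23.2, 30.8 and 28 CPM in the *Nf1fl/fl;DhhCre* libraries and 6.38, 6.00 and 8.91 CPM in the others (-1.94, SE 0.239, limma-voom adjusted p = 0.00835). *Runx2*, the third RUNX gene, fell by 1.46 on the log2 scale (SE 0.172, limma-voom adjusted p = 0.00764). The calls of both were kept in 6 of the 6 leave-one-out fits, whereas that of *Id2* was kept in 1, that of *Btc* in 2 and, among the higher genes, that of *Uchl1* in 3. Without labelled double knockout replicate 3, *Id2* (-1.85, limma-voom adjusted p = 0.074) and *Btc* (-1.22, limma-voom adjusted p = 0.109) were not called. The 3 higher genes are known to be expressed in sensory neurons as well. For the 4 lower genes the source cells were not identified either, and the part of any cell type was not tested. *Gap43*, a growth cone protein, was at 13.7, 18.9 and 18.7 CPM against 38.9, 44.7 and 78.2 CPM (1.61, SE 0.308, limma-voom adjusted p = 0.017).

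*Jun*, the regulator of the programme, was at 109, 92.9 and 92.1 CPM in the *Nf1fl/fl;DhhCre* libraries, and the labelled double knockouts had 69.4, 65.0 and 69.9 CPM. It was lower in every library of that group, by -0.52 on the log2 scale (SE 0.128, limma-voom adjusted p = 0.0324), and the size was under 2-fold. *Shh*, a repair SC signal, was at 56.7, 23.9 and 77.0 CPM against 78.7, 51.2 and 60.5 CPM (0.42, limma-voom adjusted p = 0.508). *Sox2* was at 6.80, 3.87 and 9.11 CPM against 4.46, 3.62 and 3.96 CPM (-0.61, limma-voom adjusted p = 0.311). Both overlapped between the genotypes. This list did not move in 1 direction, and *Gdnf* was lower together with some of its genes and not with others.

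**Figure D4:**
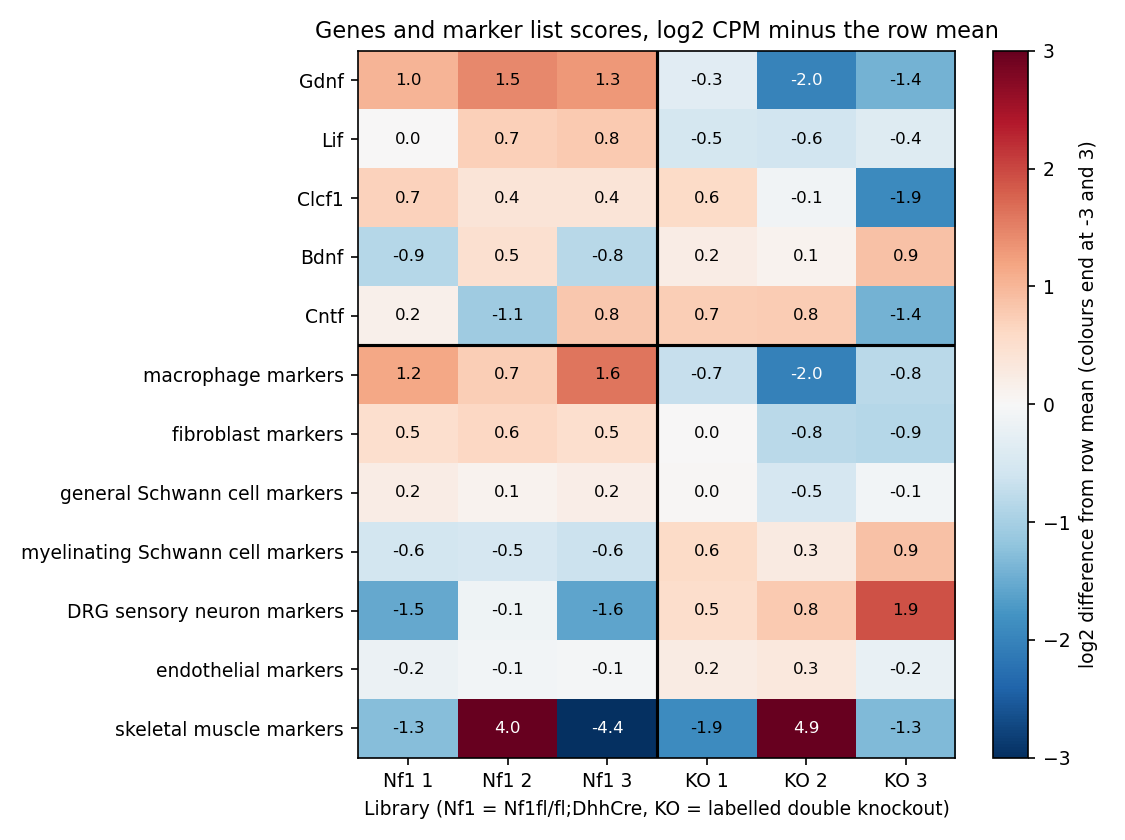
Log2 CPM of 5 ligand genes (upper rows) and mean log2 CPM of 7 marker lists (lower rows) in the 6 libraries, each row as the difference from its own mean over the libraries, with numbers in the cells and colours that end at -3 and 3. *Gdnf* shares the order of the labelled double knockouts with the macrophage list, lowest in replicate 2 and highest in replicate 1, whereas the skeletal muscle list is high in replicate 2 of both genotypes.

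The genes most like each tested member across the 6 libraries were found by the root mean square difference of log2 CPM centred on each gene's mean, among 12163 or 12164 genes whose average log2 CPM was 2 or more. The gene most like *Gdnf* was *Tlr7*, an endosomal sensor of RNA (0.063). *Tlr7* was at 46.2, 55.2 and 53.2 CPM against 17.1, 5.10 and 8.38 CPM, the order of *Gdnf* in every library. *Bdnf* was most like *Shc2* (0.09) and *Ehd3* (0.1), and *Lif* most like *Gm14005* (0.124) and *Pdlim1* (0.139). *Cntf* (*1700052K11Rik* at 0.291, *Pon3* at 0.347) and *Clcf1* (*Sesn2* at 0.204, *Trim12a* at 0.321) had no gene as near. The values are a description over 6 points that share libraries and genotypes.

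**Figure D5:**
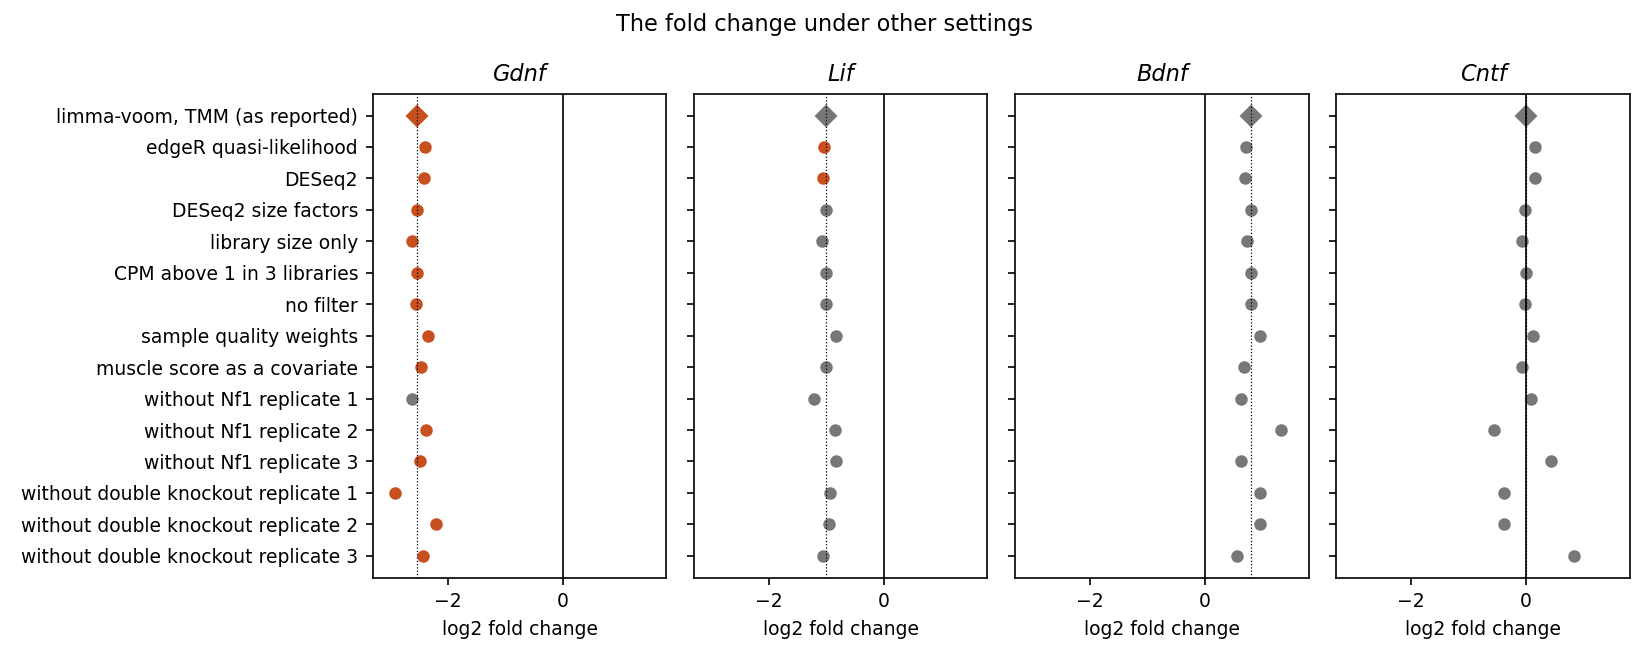
Log2 fold changes (x axis) of *Gdnf*, *Lif*, *Bdnf* and *Cntf* under each setting (y axis), with the reported value as a diamond and a dotted line, and orange for a call. *Gdnf* stays between -2.91 and -2.20, *Lif* between -1.21 and -0.83 and *Bdnf* between 0.55 and 1.32, while *Cntf* lies on both sides of 0, from -0.55 to 0.82.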

How the data were processed

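Bulk RNA-seq libraries of mouse DRG/tumors, 3 per genotype, were analysed. The authors amplified the RNA (NuGEN Ovation v2), made Nextera XT libraries, aligned paired-end reads to mm10 with TopHat and deposited raw counts per gene from featureCounts. The annotation and strand setting are not given in the sources used here. Groups came from the genotype labels. Titles and deposited tables carry different numbers for 4 libraries, always within a genotype.

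TMM factors were applied and limma-voom was fitted (R 4.3.3, edgeR 4.0.16, limma 3.58.1), both as in the study's methods, with genotype as the only term and Benjamini-Hochberg adjustment over 15652 genes. Low genes were removed first by filterByExpr at its defaults (10 counts per gene, 15 in all), a choice made here. Tests are two-sided. CPM used the TMM factors, and log2 CPM a prior count of 0.5. Count intervals are exact and, like the floor of 3 counts, cover counting error only. Between libraries of a genotype the chi-square was 22.8 to 142 for each degree of freedom, so none was a copy. Positions and exon lengths came from GENCODE M21, promoter windows from RefSeq. Protein sequences were not analysed here. Genes named were the 8 members, their receptors, *Jun*, *Shh*, *Sox2*, every called gene of the lists, and the 2 genes most like each tested member. Some genes that meet this rule, called ones included, are not reported here and are left out of the lists. The members and lists were chosen with earlier results of these data known. The steps were tested on simulated data.

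The settings changed were the test (edgeR's quasi-likelihood or DESeq2 1.42.0), the scaling (DESeq2 size factors or library size alone), the filter (none, or a CPM over 1 for 3 libraries), sample quality weights, the muscle score as covariate, and the libraries, each left out in turn. Figures were drawn with matplotlib 3.10.9.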

Additional observations from a re-analysis of the deposited data

How the results depend on the processing

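*Gdnf* kept its direction and its call in 8 of 8 other settings with all 6 libraries (log2 fold changes -2.62 to -2.34) and its direction in 6 of 6 fits that left out 1 library (-2.91 to -2.20, limma-voom adjusted p 0.0186 to 0.0501). The number of members called lower was 2 with edgeR and 2 with DESeq2, both through *Lif*, where all genes called lower were 975 and 1236 (839 in limma-voom), and 0 to 1 without single libraries. *Bdnf* and *Clcf1* kept their direction and were called in no setting run (*Clcf1* was not tested under the CPM filter). *Cntf* turned positive with edgeR (0.154), DESeq2 (0.15), the CPM filter (0.003), quality weights (0.119) and without *Nf1fl/fl;DhhCre* replicate 1 (0.09) or 3 (0.429) or labelled double knockout replicate 3 (0.825), and ranged from -0.554 to 0.825 without single libraries. Without single libraries, receptors called higher were 0 to 5, and receptors called lower 0 to 2 (1 with DESeq2 and 1 with library size only, *Il6ra* in both). Of the list of other ligands, edgeR and DESeq2 each called 1 gene lower (*Crlf2*, known as a receptor). Without single libraries, repair programme genes called were 0 to 3 higher and 2 to 5 lower, and all genes 181 to 1304 higher and 181 to 1028 lower, the lowest of each without *Nf1fl/fl;DhhCre* replicate 1. No setting moved the median of all genes by more than 0.1 on the log2 scale. No paired analysis was possible because the replicate numbers were given here and pair no mice. Depth limits *Ntf3*, *Olig1*, *Artn* and *Clcf1*, which had at most 15 counts in any library.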
